A study of Mus musculus with 8 samples.

Results

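Bcas1, Tns3, Itpr2, Neu4, Rras2, Tmem2 and Tmem163 are 7 genes used to mark committed oligodendrocyte precursors and newly formed oligodendrocytes. They were taken by name from the expression table of cultured mouse iOLs (induced immature oligodendrocytes), and 7 of 7 were found among its 24346 listed genes. RNA-seq was performed on 8 libraries, 4 from Med23+/+ and 4 from Med23-/- iOLs. The Med23-/- cells came from Med23 fl/fl;Olig1-Cre mice, in which Cre driven by Olig1, a gene of the oligodendrocyte lineage, removes the floxed part of Med23, a subunit of the Mediator coactivator complex. The label of the other group is WT, and the study describes its conditional knockout controls as Med23 fl/fl littermates. In both groups, OPCs (oligodendrocyte precursor cells) were panned from brains at postnatal day 7 with an antibody against CD140a, the PDGF receptor, and were expanded in PDGF-AA and NT-3. Both groups then received 15 nM T3 (thyroid hormone) and 10 ng/mL CNTF (ciliary neurotrophic factor) for 1 day. The sources used here do not say whether animals were pooled or whether replicates came from separate litters, so p-values measure the spread between these libraries, which may be in part technical.

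Oligodendrocytes arise from dividing OPCs that leave the cell cycle, pass through a short committed precursor stage and then build myelin, the insulating sheath of axons. T3 drives this exit in culture. The 7 genes are switched on around that transition in the brain but act in different ways. Bcas1 encodes a protein of early myelinating cells, Tns3 an adaptor between integrins and the actin cytoskeleton, and Itpr2 a calcium channel of the endoplasmic reticulum opened by inositol trisphosphate (IP3). Rras2 encodes a small GTPase, Neu4 a sialidase that removes sialic acid from glycoproteins and glycolipids, Tmem2 (also named Cemip2) a cell-surface protein that degrades hyaluronan, and Tmem163 a zinc transporter.

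Values are FPKM, the number of fragments scaled by transcript length and library size, so levels of different genes can be set side by side. Read totals were not used here, and the depth of each library is unknown; between 15941 and 16469 of the listed genes were above 0. As a check of the labels, Med23 itself had between 12.2 and 12.7 FPKM in the Med23+/+ libraries and between 7.93 and 8.49 FPKM in the Med23-/- libraries, which did not overlap. The transcript was therefore reduced but still present under the Med23-/- label, at 0.658 times the Med23+/+ mean. OPC markers, among them Pdgfra, were measured in every library, and the late myelin markers Aspa and Klk6 were listed at 0 in every library.

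Of the 7 genes, 5 were lower in the Med23-/- iOLs, 1 was higher and 1 did not pass the test. Bcas1, Tns3, Itpr2, Neu4 and Tmem163 fell, Tmem2 rose, and Rras2 had similar levels in both genotypes. A gene was called when limma on log2(FPKM + 1) gave an adjusted p under 0.05 together with a fold change above 2. By the same rule, 1.75% of the 12328 genes tested were called lower and 2.98% were called higher. The median log2 fold change was -1.48 over the 7 genes and -0.01 over all genes tested, of which the middle part, from the lower to the upper quartile, lay between -0.20 and 0.21. All 7 genes had a mean of at least 1 FPKM in each genotype, so none was tested through 1 genotype alone. In bulk cultures, fewer cells of a type and less RNA per cell cannot be told apart.

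**Figure D1:**
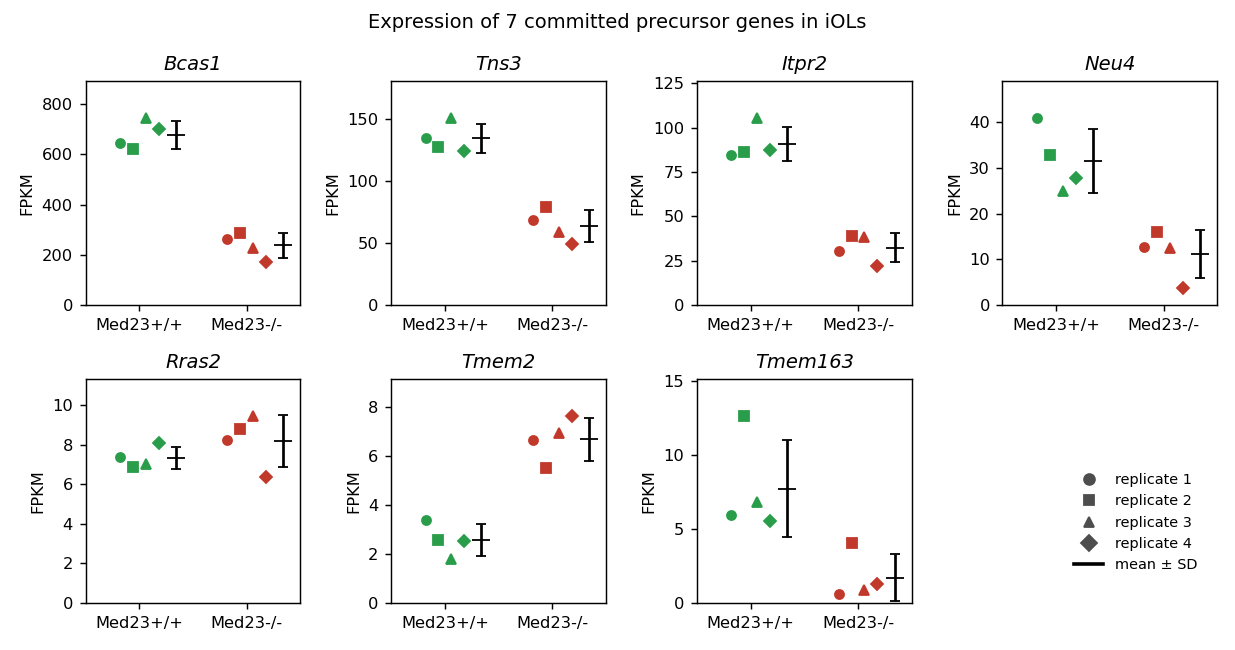
FPKM of each of the 7 genes (vertical axes, linear from 0) in 4 Med23+/+ (green) and 4 Med23-/- (red) libraries, with the marker shape giving the replicate number and the black bar the mean ± SD. The genotypes separate for 6 genes, with Tmem2 the 1 gene higher in Med23-/- iOLs, and overlap for Rras2.

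Bcas1 was the most abundant of the 7 genes. It had 643, 620.0, 743 and 699.6 FPKM in Med23+/+ replicates 1 to 4 and 263, 288, 227 and 172 FPKM in Med23-/- replicates 1 to 4. Every Med23-/- library was far below the lowest Med23+/+ library. The level thus averaged 676 ± 55.5 FPKM in the controls against 238 ± 50.5 FPKM in Med23-/- cells (n = 4 per genotype, SD), 2.85-fold lower (log2 fold change -1.53, SE 0.15, limma adjusted p = 0.000128). Bcas1 still ranked high after this fall, since 97.9% of the genes tested had a lower mean FPKM in Med23-/- iOLs, against 99.2% in Med23+/+ iOLs.

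Tns3, the tensin gene, was second in level. The controls gave 134, 128, 150.3 and 124 FPKM for it, against 68.2, 79.2, 58.6 and 49.5 FPKM over the Med23-/- libraries. The groups did not overlap, and the fall was the smallest among the 5 genes that fell. Means were 134 ± 11.5 and 63.9 ± 12.7 FPKM (n = 4 per genotype, SD), 2.10-fold lower in Med23-/- iOLs (log2 fold change -1.08, SE 0.14, limma adjusted p = 0.000440). With the fold change so close to 2, the call was lost to the fold limit alone, at a log2 fold change of -0.96 without Med23-/- replicate 4 and of -0.95 under quantile normalization.

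Itpr2, the calcium channel gene, showed a fall close in size to that of Bcas1. Controls stood at 84.3, 86.2, 105 and 87.5 FPKM and Med23-/- libraries at 30.6, 38.8, 38.4 and 22.1 FPKM, without overlap. Among the controls, replicate 3 stood above the other libraries, which lay within a few FPKM of each other. Itpr2 averaged 90.8 ± 9.65 FPKM in the controls and 32.5 ± 7.90 FPKM in Med23-/- cells (n = 4 per genotype, SD), 2.80-fold lower (log2 fold change -1.48, SE 0.17, limma adjusted p = 0.000226).

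Neu4, the sialidase gene, fell as well. Over the 4 control libraries it was at 40.8, 32.8, 24.9 and 27.7 FPKM, against 12.8, 16.0, 12.5 and 3.82 FPKM over the Med23-/- libraries. The groups did not overlap, but Med23-/- replicate 4 was well below the other 3. The means were 31.6 ± 6.97 and 11.3 ± 5.20 FPKM (n = 4 per genotype, SD), 2.81-fold lower in Med23-/- iOLs (log2 fold change -1.53, SE 0.35, limma adjusted p = 0.00893). Without Med23-/- replicate 4 the log2 fold change of Neu4 was -1.13 and the call remained.

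Tmem163, the zinc transporter gene, was weakly expressed and the most variable of the 7 genes. Its FPKM values were 5.96, 12.7, 6.82 and 5.56 in Med23+/+ replicates 1 to 4 and 0.621, 4.07, 0.890 and 1.25 in Med23-/- replicates 1 to 4. Replicate 2 was the highest library within each genotype, and the genotypes did not overlap. The mean of 7.75 ± 3.31 FPKM in the controls was 4.54 times that of 1.71 ± 1.60 FPKM in Med23-/- cells (n = 4 per genotype, SD; log2 fold change -1.78, SE 0.35, limma adjusted p = 0.00479). Without Med23-/- replicate 2 the Med23-/- mean was 0.920 FPKM, the ratio of means 8.43 and the log2 fold change -2.13. On the log2(FPKM + 1) scale the difference is understated for a gene this low, and with a pseudocount of 0.1 it was -2.39.

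Tmem2, the hyaluronan-degrading protein gene, went the other way. It had 3.37, 2.58, 1.79 and 2.51 FPKM in Med23+/+ iOLs and 6.65, 5.51, 6.92 and 7.62 FPKM in Med23-/- iOLs. Each Med23-/- library was above each control library. Means were 2.56 ± 0.644 and 6.67 ± 0.879 FPKM (n = 4 per genotype, SD), 2.60-fold higher in Med23-/- cells (log2 fold change 1.12, SE 0.15, limma adjusted p = 0.000503). Under quantile normalization the log2 fold change was 0.98, just short of the fold limit, with a limma adjusted p of 0.000557.

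Rras2, the GTPase gene, did not differ beyond the spread between libraries. Its Med23+/+ libraries had 7.40, 6.85, 7.02 and 8.08 FPKM and its Med23-/- libraries 8.22, 8.78, 9.45 and 6.37 FPKM. The lowest and the highest of the 8 values were both from Med23-/- iOLs. Means were 7.34 ± 0.545 and 8.20 ± 1.32 FPKM (n = 4 per genotype, SD; log2 fold change 0.13, SE 0.11, limma adjusted p = 0.421). The 95% interval of the log2 fold change ran from -0.12 to 0.39, so it holds neither a fall nor a rise of 2-fold.

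**Figure D2:**
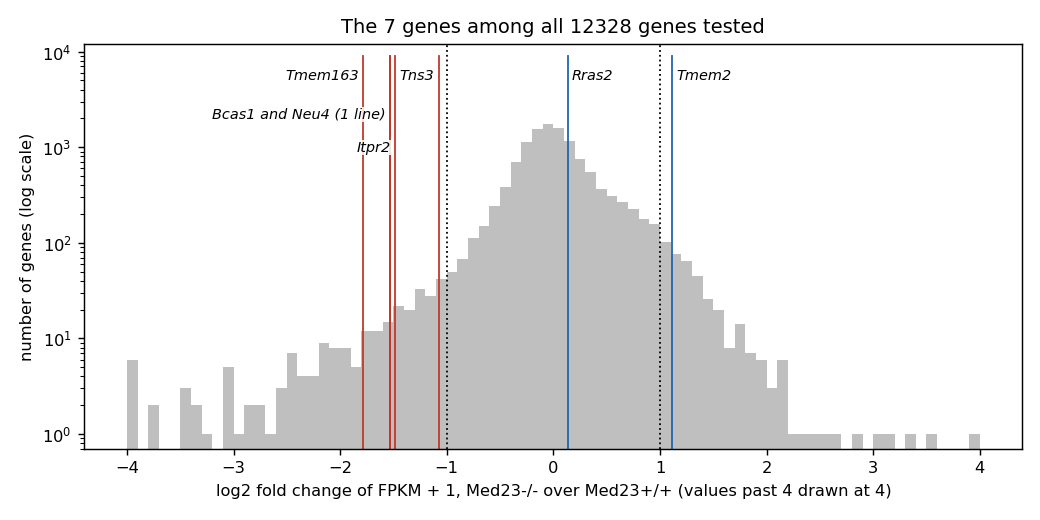
Histogram of the log2 fold changes (horizontal axis, Med23-/- over Med23+/+) of all 12328 genes tested, with the number of genes on a log axis. Vertical lines mark the 7 genes (red for those below 0, blue for those above), with Bcas1 and Neu4 at -1.53 on the same line, and dotted lines mark a 2-fold change.

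With the adjusted p as the sole criterion, these 5 genes again counted as lower and Tmem2 as higher, against 14.1% lower and 15.9% higher among all genes tested. The libraries of the genotypes did not overlap for 5 genes that were lower and for 1 gene that was higher. Among all genes tested, 15.3% had this separation downward and 16.3% upward. The second principal component of log2(FPKM + 1), with 15.6% of the variance, placed replicates 1 and 2 of both genotypes between 7.86 and 28.7 and replicates 3 and 4 between -20.8 and -12.4, a split that the labels do not name. Within replicates 1 and 2 alone and within replicates 3 and 4 alone, each of the 6 called genes kept its direction. Since the genotypes did not overlap for these genes, this outcome was fixed beforehand and is no further evidence. The difference of mean log2(FPKM + 1) for Bcas1 was -1.19 in replicates 1 and 2 and -1.86 in replicates 3 and 4. The corresponding values were -0.83 and -1.33 for Tns3, -1.28 and -1.68 for Itpr2, and -1.30 and -1.76 for Neu4. They were -1.77 and -1.80 for Tmem163, 0.83 and 1.40 for Tmem2, and 0.23 and 0.04 for Rras2. Whether the difference between these sets of replicates exceeds their spread was not tested.

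In Med23+/+ iOLs the genes stood in the order Bcas1, Tns3, Itpr2, Neu4, Tmem163, Rras2 and Tmem2 by mean FPKM. Neighbours in this order did not overlap in any library, except Tmem163 and Rras2. In Med23-/- iOLs the upper 4 places were the same, followed by Rras2, Tmem2 and Tmem163. There, Neu4 overlapped Rras2 and Rras2 overlapped Tmem2, while the other neighbours were apart. Tmem163 and Tmem2 thus exchanged the lowest place between the genotypes. Measured against all genes tested, Neu4 moved from above 78.5% of them by mean FPKM in the controls to above 46.0% in Med23-/- cells, and Tmem163 moved from above 35.7% to above 5.69%. Tmem2 moved from above 13.6% to above 29.5%, and Rras2 stayed close, at 34.1% and 35.6%.

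The Med23-/- libraries differed among themselves in a manner that several of the 7 genes shared. For Bcas1, Tns3, Itpr2 and Neu4, Med23-/- replicate 4 was the lowest and Med23-/- replicate 2 the highest of the 4 libraries. Tmem2 showed the mirror image, lowest in replicate 2 and highest in replicate 4. Tmem163 was also highest in replicate 2, whereas its lowest value was in replicate 1. The pattern is not particular to these genes. Replicate 4 was lowest and replicate 2 highest for 41.2% of the 216 genes called lower and 12.7% of all genes tested, and the mirror image held for 42.5% of the 367 genes called higher and 14.9% of all genes tested. These shares are descriptions, since the calls were made on the same libraries.

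**Figure D3:**
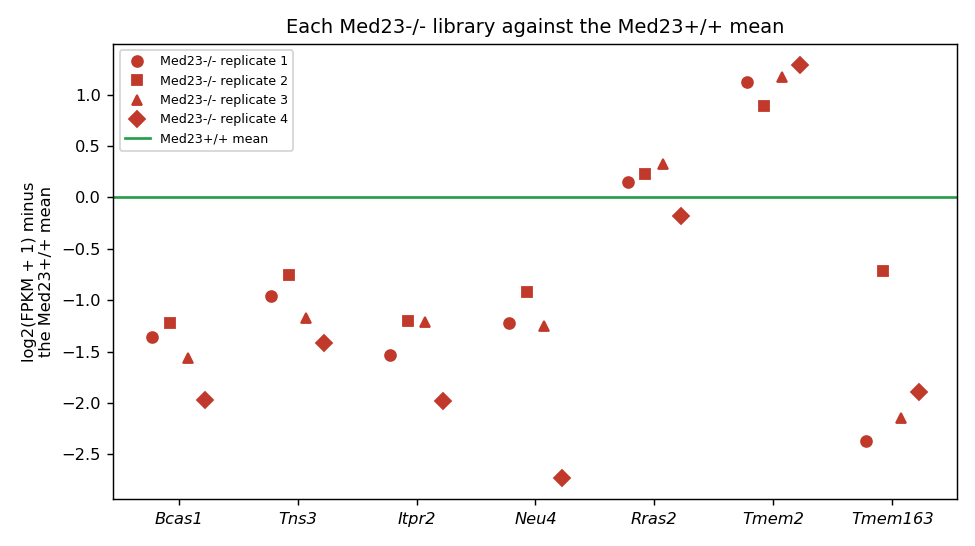
Difference of log2(FPKM + 1) between each Med23-/- library (red, marker shape giving the replicate) and the Med23+/+ mean (green line at 0) for the 7 genes on the horizontal axis. Replicate 4 lies lowest for Bcas1, Tns3, Itpr2, Neu4 and Rras2, at -2.73 for Neu4, and highest for Tmem2 at 1.29.

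The differences between members were compared as the log2 ratio of FPKM + 1 of 2 genes within each library. The scaling of libraries cancels from it nearly for abundant genes, but less so for weak genes such as Tmem2 and Tmem163. In 12 of the 21 pairs the ratio separated the genotypes without overlap, and the two-sided exact permutation test then gave 0.0286, the smallest p that 4 libraries against 4 allow. Adjusted over the 21 pairs this became 0.05, at and not under the threshold, so 0 pairs passed. The 12 pairs were the 11 that set Rras2 or Tmem2 against another gene, and Bcas1 against Tns3. For Tmem2 against each gene that fell, the separation was fixed beforehand. Both genes already separated the genotypes, in opposite directions, so the p of these pairs is no further evidence. These pairs also entered the adjustment. The ratio of Bcas1 to Rras2, for example, was 1.66 lower on the log2 scale in Med23-/- iOLs, from 6.34 ± 0.13 to 4.68 ± 0.21 (n = 4 per genotype, SD). Bcas1 over Tns3 moved from 2.33 ± 0.11 to 1.87 ± 0.08, a difference of -0.45. By contrast, Bcas1 over Itpr2 moved by -0.05 and Itpr2 over Neu4 by 0.05, with exact permutation p of 0.800 and 0.857 and adjusted p of 0.884 and 0.900. The ratios of Tmem163 to the other 4 genes that fell overlapped between the genotypes.

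Promoter sequence is shown for Tns3 and Itpr2, which fell, and for Rras2, which did not, since the study asks how Med23 works with the transcription factor Sp1. Sp factors bind the GC box, whose core GGGCGG was searched on both strands in the 250 bases before the annotated start. RefSeq sequences on mm10 (GRCm38.p6) were matched for 5 of the 7 genes. Capitals mark GGGCGG, or CCGCCC where the core lies on the other strand. The windows are chr11:8664536-8664785, chr6:146502224-146502473 and chr7:114117782-114118031, each on the minus strand and printed 5′ to 3′ toward the gene.
Tns3: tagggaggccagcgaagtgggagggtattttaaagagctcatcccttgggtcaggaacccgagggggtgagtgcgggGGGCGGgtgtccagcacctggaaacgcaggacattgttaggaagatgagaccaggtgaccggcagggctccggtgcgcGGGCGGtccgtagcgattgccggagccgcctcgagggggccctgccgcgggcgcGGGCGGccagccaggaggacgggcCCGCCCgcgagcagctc
Itpr2: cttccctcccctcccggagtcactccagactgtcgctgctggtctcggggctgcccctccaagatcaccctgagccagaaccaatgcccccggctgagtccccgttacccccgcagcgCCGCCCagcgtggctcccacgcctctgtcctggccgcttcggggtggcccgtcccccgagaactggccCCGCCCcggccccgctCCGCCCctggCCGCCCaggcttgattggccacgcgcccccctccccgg
Rras2: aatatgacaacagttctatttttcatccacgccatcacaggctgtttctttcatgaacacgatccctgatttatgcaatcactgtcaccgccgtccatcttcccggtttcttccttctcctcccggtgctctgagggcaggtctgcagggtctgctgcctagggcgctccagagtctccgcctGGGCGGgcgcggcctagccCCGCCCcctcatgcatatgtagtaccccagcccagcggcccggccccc

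Tns3 had 4 matches and Itpr2 4 matches, the nearest at 17 and 38 bases before the start, and Rras2 had 2 matches. Neu4 and Tmem163, which fell, had 0 matches in this window. By GENCODE, however, the Tmem163 window (chromosome 1, 127678022 to 127678271) lies inside the gene. The Neu4 window (chromosome 1, 94020243 to 94020492) runs past the GENCODE start. The 0 matches thus hold for the RefSeq starts used and not for other starts of these genes. The core was found in 32.7% of the 32851 promoters of the table. These windows were rich in G and C, at 69.6% for Tns3, 74.4% for Itpr2 and 59.6% for Rras2, against a median of 52.4%, so a short core of G and C is found more readily in them. A match is a stretch of letters and was not tested for binding.

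The relatives of each member were measured to see whether the family moved with it. Among the tensins, Tns3 was by far the most abundant, with 97.4 ± 0.616% of the summed FPKM of Tns1, Tns2, Tns3 and Tns4 in the controls and 97.1 ± 0.335% in Med23-/- cells (n = 4 per genotype, SD). The difference of -0.25 percentage points was within the spread between libraries (exact permutation test, p = 0.400, adjusted over 4 families 0.400). Tns1 was lower as well, at 2.23 ± 0.485 FPKM in the controls and 0.605 ± 0.0859 FPKM in Med23-/- cells (n = 4 per genotype, SD), with a log2 fold change of -0.9996 on the FPKM + 1 scale just short of the limit (limma adjusted p = 0.000707). Tns2 did not differ beyond its spread (log2 fold change -0.04, limma adjusted p = 0.865). Of 6 integrin and adhesion partners, 0 were called. By limma adjusted p alone 3 were lower and 1 was higher, against 14.1% and 15.9% of all genes tested. The lower genes were Itgb1, Ptk2 and Pxn, which encode the integrin beta-1 chain, focal adhesion kinase and paxillin. The higher gene was Dlc1, which encodes a tensin-binding protein. In this order, the log2 fold changes were -0.31, -0.31, -0.82 and 0.77.

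Itpr2 was likewise the predominant IP3 receptor gene. Itpr1 had 2.88 ± 0.227 FPKM in the controls and 2.38 ± 0.309 FPKM in Med23-/- cells (n = 4 per genotype, SD; limma adjusted p = 0.178). Its genotypes only just did not overlap, with the lowest control library at 2.72 FPKM and the highest Med23-/- library at 2.70 FPKM. Such a downward separation held for 15.3% of all genes tested. Itpr3 stayed under 1 FPKM in every library. The share of Itpr2 in the summed FPKM of the 3 genes was 96.7%, 96.4%, 97.3% and 96.9% in the control libraries and 93.5%, 94.6%, 93.4% and 88.9% in the Med23-/- libraries. The groups did not overlap, and the mean share was 4.26 percentage points lower in Med23-/- cells (exact permutation test, p = 0.0286, adjusted over 4 families 0.0571). Without Med23-/- replicate 4 the difference was -3.03 percentage points and the adjusted exact permutation p 0.0381, and without any 1 of the control libraries that p was 0.114. With or without Med23-/- replicate 4, the exact permutation p cannot go below 0.0286, which the Itpr2 share had already reached. The adjusted p was lower without replicate 4 because the Rras2 share then reached this minimum as well. Of 17 genes that make IP3, modulate its receptor, fill the calcium store, release calcium from it or gate calcium entry, 15 were tested, 1 was called lower and 1 higher, with a median log2 fold change of 0.04. Plcg2, a phospholipase C gene that produces IP3, fell from 4.78 ± 0.648 FPKM (n = 4, SD) to a mean of 0.772 FPKM, without overlap (log2 fold change -1.70, limma adjusted p = 2.26e-05). Orai1, the pore gene of store-operated calcium entry, rose from 8.47 ± 1.49 to 18.3 ± 3.38 FPKM (n = 4 per genotype, SD; log2 fold change 1.03, limma adjusted p = 0.000827). Dropping the fold limit gave 3 lower and 4 higher among the 15, the latter including the store release channel genes Ryr2 and Ryr3. Ryr3 was weak, at 0.521 ± 0.108 FPKM in the controls and 1.497 ± 0.354 FPKM in Med23-/- cells (n = 4 per genotype, SD). It stayed under 1 FPKM in every control library, so it was tested through its Med23-/- libraries alone.

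**Figure D4:**
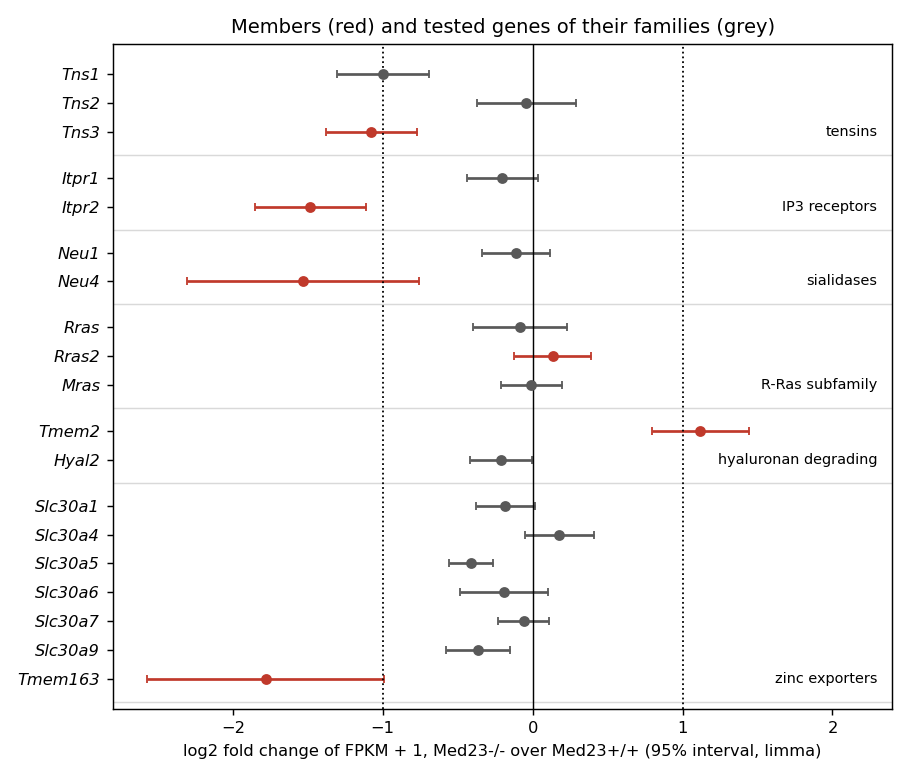
Log2 fold change of FPKM + 1 (horizontal axis, Med23-/- over Med23+/+) with its 95% interval from limma for the members (red) and the tested genes of their families (grey). Tns1 at -0.9996 lies beside Tns3, while Itpr1, Neu1 and the other R-Ras genes have intervals that include 0.

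Neu4 had the highest FPKM of the sialidase genes in each library except Med23-/- replicate 4, where Neu1 was higher, at 5.52 against 3.82 FPKM. Its share of the summed FPKM of Neu1, Neu2, Neu3 and Neu4 was 83.7%, 81.3%, 75.2% and 81.3% in Med23+/+ and 65.1%, 69.2%, 60.2% and 38.3% in Med23-/- iOLs. The groups did not overlap, with a difference of -22.2 percentage points (exact permutation test, p = 0.0286, adjusted over 4 families 0.0571). Without Med23-/- replicate 4 it was -15.6 percentage points, with an adjusted exact permutation p of 0.0381, against 0.114 without any 1 of the control libraries. As for Itpr2, the lower adjusted p came from the Rras2 share reaching the smallest possible p, and is no stronger evidence for Neu4. The lysosomal sialidase gene Neu1 had 6.76 ± 0.679 and 6.20 ± 0.721 FPKM (n = 4 per genotype, SD; limma adjusted p = 0.457). Polysialic acid, a sialic acid chain on the adhesion molecule NCAM, is made by the products of St8sia2 and St8sia4. Ncam1 was lower by limma adjusted p alone, at 212 ± 6.88 and 156 ± 14.4 FPKM (n = 4 per genotype, SD; log2 fold change -0.44, limma adjusted p = 0.00411). St8sia4 had a log2 fold change of 0.52 and did not pass (limma adjusted p = 0.0545), and St8sia2 stayed under 1 FPKM in every library.

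The R-Ras subfamily was level throughout. Rras, Rras2 and Mras summed to 23.9 ± 1.64 FPKM in the controls and 24.3 ± 0.714 FPKM in Med23-/- cells (n = 4 per genotype, SD), and 0 of the 3 genes passed limma by adjusted p alone. The share of Rras2 in this sum was 30.8 ± 1.84% and 33.8 ± 6.21% (n = 4 per genotype, SD; exact permutation test, p = 0.400, adjusted 0.400). Med23-/- replicate 4 was the lowest library in this share, at 25.2%, and without it the difference was 5.90 percentage points with an adjusted exact permutation p of 0.0381, while without any other single library that p ran from 0.371 to 0.743.

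**Figure D5:**
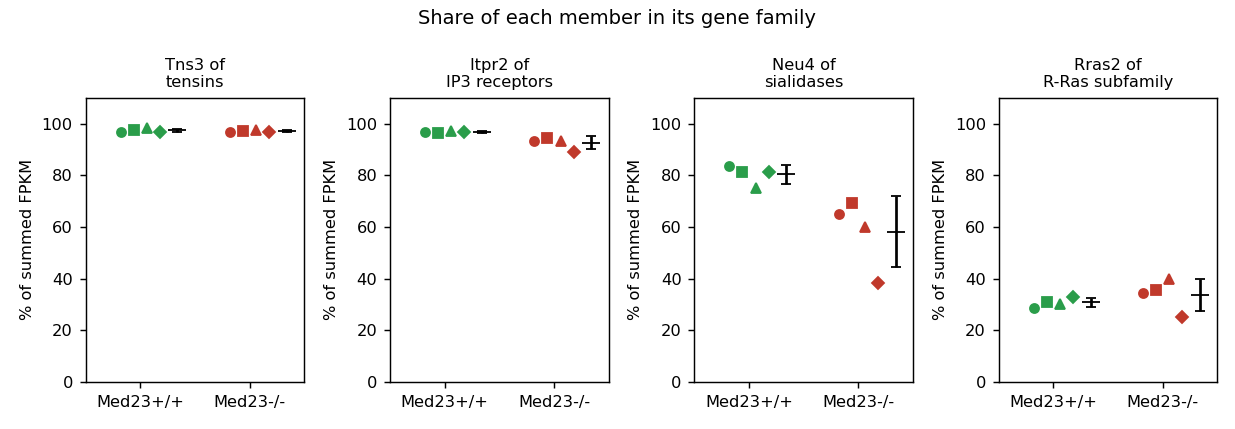
Share of the summed FPKM of the gene family (vertical axes, percent from 0) held by Tns3, Itpr2, Neu4 and Rras2 in each library, with marker shapes for replicates 1 to 4 (circle, square, triangle, diamond) and black bars for the mean ± SD. The genotypes separate for Itpr2 and Neu4 and overlap for Tns3 and Rras2.

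Of the genes for hyaluronan-degrading proteins, Tmem2 and Hyal2 were tested, and Tmem2 alone was called. Hyal2 had 17.7 ± 1.44 FPKM in the controls and 15.2 ± 1.58 FPKM in Med23-/- cells (n = 4 per genotype, SD; log2 fold change -0.21, limma adjusted p = 0.117), so in FPKM it was above Tmem2 in either genotype. The other 4 genes of this list did not reach the mean of 1 FPKM needed for the test. Among them Cemip, the closest relative of Tmem2, had 0.547 ± 0.154 FPKM in the controls and 1.19 ± 0.559 FPKM in Med23-/- cells (n = 4 per genotype, SD), with overlap. Of the hyaluronan synthases and receptors, 4 of 5 were tested, and 0 passed by limma adjusted p alone. Of 11 zinc exporter genes, 7 were tested, and Tmem163 was the 1 gene called. Slc30a5 and Slc30a9 were lower by limma adjusted p alone, with log2 fold changes of -0.41 and -0.37. Mt1, which encodes a zinc-binding metallothionein, was at 87.0 ± 16.5 and 48.6 ± 12.4 FPKM (n = 4 per genotype, SD; log2 fold change -0.84, limma adjusted p = 0.00742), and Mt2, Mt3 and the zinc-sensing factor gene Mtf1 did not pass.

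Other markers of the same stage moved with the 5 members that fell. Of 11 other genes of committed precursors and newly formed oligodendrocytes, 10 were tested, 8 were called lower and 0 higher, with a median log2 fold change of -1.36. Chn2 was lower by limma adjusted p alone, and Lims2 did not pass (limma adjusted p = 0.0611). The summed FPKM of this list was 835, 980.4, 765 and 536 in Med23-/- replicates 1 to 4, with replicate 4 lowest and replicate 2 highest, as for Bcas1. Of 10 OPC markers, all tested, 4 were called higher and 0 lower. By limma adjusted p alone 5 were higher and 2 lower, against 15.9% and 14.1% of all genes tested. The lower ones were Sox6 (log2 fold change -0.45) and Matn4 (log2 fold change -0.64). Of 12 markers of mature oligodendrocytes 5 were tested, with 3 called lower and 0 higher. These lists are known markers and share their libraries with the members, so they are no independent evidence of a direction.

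Markers of other cell types also moved with the genotype. Of 8 neuron markers, all tested, 5 were called higher in Med23-/- iOLs, and their summed FPKM ran from 47.6 to 76.3 in the control libraries and from 96.9 to 198 in the Med23-/- libraries. Of 8 astrocyte markers, 3 were called lower (Aqp4, Gfap and Fgfr3), while Slc1a2 was higher by limma adjusted p alone (log2 fold change 0.67, limma adjusted p = 0.0222), and the summed FPKM of the list overlapped between genotypes. Of 8 microglia markers, 1 was tested and 0 were called, and Cx3cr1 and Tmem119 stayed near 0. Endothelial markers summed to at most 2.97 FPKM and pericyte and fibroblast markers to at most 17.1 FPKM in any library. The neuron sum was 129.7, 96.9, 198 and 165 FPKM in Med23-/- replicates 1 to 4. It was lowest in replicate 2, where Bcas1 was highest and Tmem2 lowest of the 4, and highest in replicate 3, where Rras2 was highest. At the other end the orders differed, as Bcas1 was lowest and Tmem2 highest in replicate 4, where the neuron sum was 165 FPKM. The part of these other cells in the levels of the 7 genes was not tested.

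The genes whose expression was most like that of Bcas1, Tns3 and Itpr2 were found by Pearson's r of log2(FPKM + 1) over the 8 libraries, among the genes whose mean FPKM was 5 or more. For Bcas1 these were Amz1 (r = 0.997), Hyou1 (r = 0.997) and Capn5 (r = 0.996), for Tns3 Sh3rf1 (r = 0.997), Amz1 (r = 0.996) and Zfp365 (r = 0.995), and for Itpr2 Dock9 (r = 0.999), Dixdc1 (r = 0.998) and S100b (r = 0.998). The 8 libraries form 2 groups by genotype, so these values describe mainly the shared difference between groups. The size of that difference was not the same, as Hyou1 went from 51.0 ± 1.52 to 35.6 ± 2.33 FPKM and S100b from 125 ± 25.6 to 17.5 ± 6.85 FPKM (n = 4 per genotype, SD). Dock9, which follows Itpr2 most closely, went from 53.9 ± 6.97 to 17.6 ± 4.90 FPKM (n = 4 per genotype, SD).

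The genes lie on 6 chromosomes, and Neu4 and Tmem163 share chromosome 1 but lie far apart on it. By GENCODE vM21 on mm10, Bcas1 spans chromosome 2, 170346991 to 170427845, and Tns3 chromosome 11, 8431652 to 8664535. Itpr2 lies on chromosome 6, 146108299 to 146502223, and is the longest of the 7 genes, with 56 exons in its longest coding transcript. Neu4 is the shortest, with 4 exons in that transcript, on chromosome 1, 94020451 to 94028334. Tmem163 is on chromosome 1, 127486546 to 127679548, Rras2 on chromosome 7, 114046782 to 114117781, and Tmem2 on chromosome 19, 21778342 to 21858360. Both Bcas1 and Tmem163 overlap a listed gene on the opposite strand, and since the sources used here do not state that strand was used in counting, reads of such pairs cannot be told apart. Bcas1os2, antisense to Bcas1, had 15.1 ± 2.21 FPKM in the controls and 5.29 ± 2.76 FPKM in Med23-/- cells (n = 4 per genotype, SD), far below Bcas1. Mgat5, which overlaps Tmem163, had 11.3 ± 0.578 and 11.9 ± 0.0582 FPKM (n = 4 per genotype, SD) and did not follow its fall.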

How the data were processed

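RNA-seq of 4 Med23+/+ and 4 Med23-/- cultures was used. The authors checked reads with FastQC, trimmed adapters with Cutadapt, aligned reads to mm10 by Tophat2 and made the deposited FPKM values with cuffdiff under -b (fragment bias) and -u (multi-mapped reads). Tool versions and the gene annotation are not given in the sources used here. The table's pooled genotype values and its own fold changes, test statistics, p- and q-values were not used, and 0 library columns were left out. Groups and replicates came from the sample titles.

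FPKM values were transformed to log2(FPKM + 1), genes averaging 1 FPKM or more over all libraries were tested with limma 3.58.1 in R 4.3.3 (lmFit, eBayes with trend, no block), with Benjamini-Hochberg adjustment over all genes tested, never over the members. Fold changes in the sense of a ratio are of mean FPKM, and log2 fold changes are on the log2(FPKM + 1) scale. The fold limit of 2 was applied to the latter, so an uncalled weak gene can have a ratio of means above 2. Log ratios and shares were compared by two-sided exact permutation tests. The limma step was tested on simulated data. Coordinates come from GENCODE vM21 (Tmem2 by its newer name Cemip2) and promoter sequences from RefSeq. The members and gene lists were chosen with earlier results of these data known. Genes named are the members, the listed relatives that were called, highest or at the ends of a range, and the 3 genes most like Bcas1, Tns3 and Itpr2. Other listed genes, such as those lower by adjusted p alone, Lims2 and the microglia genes, were named after their values were seen. Replicate numbers were not used as a pairing. The deviations of same-numbered libraries from their genotype means correlated between -0.10 and 0.16, which cannot settle whether samples were paired. The best match in the other genotype was the same-numbered library for replicate 4 alone. Each best match lay within replicates 1 and 2 or within replicates 3 and 4. Python 3.11.15, numpy 2.4.6, pandas 2.3.3, scipy 1.17.1 and matplotlib 3.10.9 were used.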

Additional observations from a re-analysis of the deposited data

Results flagged for a closer look

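Itpr2 in Med23+/+ replicate 3 had 105 FPKM, and its gap to the nearest of the other control libraries was 0.847 of the whole range of the group, above Dixon's 95% limit for 4 samples. Among the 28 groups of 4 values examined this was the 1 group that passed the limit, where chance passes about 1 in 20. Without this library the log2 fold change of Itpr2 was -1.41 and the call was kept.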

How the results depend on the processing

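Over the pseudocount, filter, scaling, trend, covariate, block and leave-one-out alternatives, no member changed direction, and of 117 values 114 kept their side of the limits. The other 3 were Tns3 and Tmem2 under quantile normalization and Tns3 without Med23-/- replicate 4, each short of the fold limit alone. Members called lower numbered 4 or 5 under each alternative. Members called higher were 0 under quantile normalization and 0 with a mean of at least 5 FPKM, where Tmem2 and Tmem163 were not tested. Over all genes, adjusted p alone gave 1738 lower and 1957 higher, and a pseudocount of 0.1 gave 654 higher. With single libraries left out, between 280 and 480 genes were called higher and between 200 and 227 lower. The replicate numbers are no known pairing. With the replicate block, 216 genes were lower and 371 higher, 5 members were lower and 1 higher, and no call of a member changed. In the paired test of ratios and shares, 4 pairs cannot give a p below 0.125, so 0 pairs passed. With single libraries left out, the number of pairs passing ran from 0 to 13, the latter without Med23-/- replicate 2 or 3. With 12 pairs at the smallest possible exact permutation p the adjusted p is 0.05, and with 13 it is 0.0462. The 13 pairs therefore passed together through the adjustment, and not because the separate pairs gave a smaller p. The share differences then ran from -0.41 to 0.0268 percentage points for Tns3, the latter without Med23+/+ replicate 3 and of opposite sign (the cause was not tested), from -4.92 to -3.03 for Itpr2, from -25.8 to -15.6 for Neu4 and from 0.98 to 5.90 for Rras2. Depth is unknown, so the counting error of weak genes cannot be given.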
